A study of Mus musculus with 12 samples.

Results

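The angiopoietins and Tie receptors were followed as 7 genes listed by name, Angpt1, Angpt2, Angptl2, Angptl4, Tek, Tie1 and Ptprb. The list uses no measured value but was drawn up with earlier results of these data known. All 7 were found among the 49315 genes counted. RNA was sequenced from mouse forebrain endothelial cells at E15.5, sorted as CD31+, CD140b-, CD45- and 7AAD-, with 4 libraries in each of 3 genotypes and 1 embryo in each library. WT embryos carried no engineered Gpr124 allele. Gpr124ΔC/ΔC embryos were homozygous for an allele in which a V5 tag and a stop codon follow the last transmembrane domain, so that the receptor lacks its intracellular domain. This allele was made by CRISPR in C57Bl/6 zygotes, and the truncated protein is poorly expressed. Gpr124-/- embryos were homozygous for a lacZ null allele. Both alleles act in every cell of the embryo, since neither depends on Cre, and no group received a treatment. Gpr124 (Adgra2) is an adhesion receptor that brain endothelium needs for WNT7 signaling. The comparisons ask how the level of each gene differed with the loss of the receptor and with the loss of its intracellular domain.

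Tek encodes TIE2, the receptor tyrosine kinase of vascular endothelium that binds the angiopoietins. Angpt1, made largely by mural and mesenchymal cells, activates TIE2 and favors quiescent, tight vessels, whereas Angpt2 is made by endothelial cells, stored in Weibel-Palade bodies, and acts against or partly in place of Angpt1 depending on context. Tie1 encodes the companion receptor that modulates TIE2, and Ptprb encodes VE-PTP, the endothelial phosphatase that removes phosphate from TIE2 and VE-cadherin. Active TIE2 signals through PI3K and AKT, which keep FOXO1 out of the nucleus, and Angpt2 is itself a FOXO1 target. Angptl2 and Angptl4 share the coiled-coil and fibrinogen-like architecture of the angiopoietins but do not bind TIE2, and ANGPTL4 is known chiefly as an inhibitor of lipoprotein lipase.

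Between 13877572 and 22551163 reads were assigned to genes in each library, and the targeted gene behaved as labelled, with Adgra2 at 38.6 ± 10.4 TPM (a transcript level corrected for depth and gene length; mean ± SD, n = 4) in WT, 43.4 ± 13.7 in Gpr124ΔC/ΔC and 4.86 ± 0.988 in Gpr124-/-. All 10 endothelial markers were present in every library, summing to 12472 to 15931 TPM in WT, 7905 to 12441 in Gpr124ΔC/ΔC and 7356 to 8695 in Gpr124-/-. This sum was dominated by Cldn5, a tight junction gene at 9177, 4994 and 2166 TPM in the 3 genotypes, and the other 9 markers summed to 4859 to 5823, 4374 to 6001 and 5479 to 6509 TPM. The mural markers summed to at most 101 TPM in any library, and Cspg4, Myh11 and Des were under 1 TPM everywhere. Blood cell transcripts differed by genotype: 10 platelet and megakaryocyte markers summed to 317 to 620 TPM in WT, 436 to 598 in Gpr124ΔC/ΔC and 629 to 2028 in Gpr124-/-, and 10 erythroid markers to 7070 to 11445, 5461 to 9715 and 17643 to 52548 TPM. Globins such as Hba-a1, at 3848, 3168 and 12619 TPM in the 3 genotypes, dominated the erythroid sum. Against WT, 6 erythroid markers were called higher in Gpr124-/- and 1 lower. The lower marker was Tfrc, at 288, 89.7 and 19.2 TPM. The library labels also begin with a letter whose meaning is not given: J and L hold WT and Gpr124ΔC/ΔC embryos, K holds 1 WT and 1 Gpr124-/- embryo, and M holds the other 3 Gpr124-/- embryos. In such sorted bulk samples, fewer cells of a type and less RNA per cell cannot be told apart.

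In WT endothelium the receptors were by far the most abundant members. Tie1 averaged 806 ± 41.8 TPM and Tek 616 ± 105 TPM, which placed them 135th and 211th among all genes. Angptl4 followed at 219 ± 26.5 TPM, then Ptprb at 145 ± 16.8, Angpt2 at 29.3 ± 5.02, Angptl2 at 3.20 ± 1.09 and Angpt1 at 0.684 ± 0.596 TPM. No 2 neighbors in this order overlapped between libraries. In Gpr124ΔC/ΔC embryos Ptprb stood above Angptl4, and the libraries of Tie1 and Tek, of Ptprb and Angptl4, and of Angptl4 and Angpt2 overlapped. In Gpr124-/- embryos the order was Tie1, Tek, Ptprb, Angpt2, Angptl4, Angptl2 and Angpt1, with only Ptprb and Angpt2 overlapping, so Angptl4 had moved from the 795th to the 7299th gene by mean TPM and Angpt2 from the 5158th to the 1913th.

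**Figure D1:**
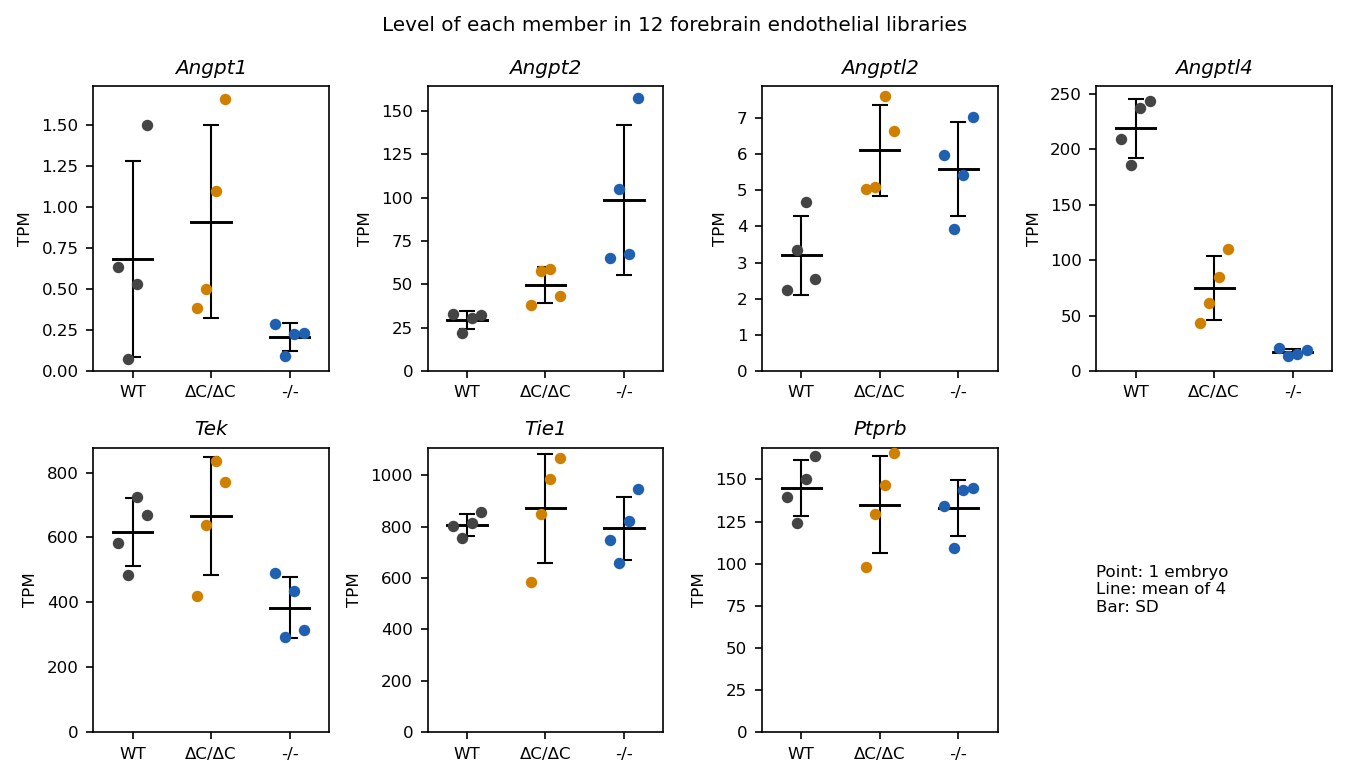
TPM (y axis, linear from 0) of each member in 12 libraries, grouped by Gpr124 genotype; points are embryos, lines are means of 4 and bars are SD. Angptl4 separates all 3 genotypes, Angpt2 separates WT from both mutants with a wide spread in Gpr124-/-, and Tie1 and Ptprb overlap throughout.

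A gene was called when its adjusted p (edgeR quasi-likelihood test, Benjamini-Hochberg over 16637 tested genes) was under 0.05 and its level differed by a factor of more than 2, that is by more than 1 on the log2 scale. All 7 members passed the filter on low counts. Angpt1 passed only through WT and Gpr124ΔC/ΔC libraries. Its Gpr124-/- libraries held 7, 2, 7 and 6 reads, under the minimum count of 10. Between Gpr124-/- and WT, 1 member was called higher (Angpt2) and 1 lower (Angptl4), where 5.67% of all tested genes were called higher and 4.21% lower. Adjusted p alone was under 0.05 for 4 members, against 19.8% of all genes. Between Gpr124ΔC/ΔC and WT, Angptl4 was called lower and no member higher, with 1.03% and 0.89% of all genes called in these directions and 4.09% passing on adjusted p alone, as did 1 member. Between Gpr124-/- and Gpr124ΔC/ΔC, Angpt2 was called higher and Angptl4 lower, against 2.67% and 1.94% of all genes, and 3 members passed on adjusted p alone, against 8.82%. The comparisons share libraries and are not independent of each other.

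Angptl4 differed in all 3 comparisons and was the member with the largest difference from WT in both mutants. The gene (chr17:33773750-33781575, minus strand, mm10) gave 209.5, 186.1, 237.0 and 243.8 TPM in WT libraries JE1, JE6, KE8 and LE6. It gave 43.1, 61.4, 84.6 and 110.4 TPM in Gpr124ΔC/ΔC libraries JE3, JE4, LE2 and LE5. It gave 20.4, 13.8, 15.1 and 18.7 TPM in Gpr124-/- libraries KE4, ME1, ME4 and ME5. Every WT library lay above every Gpr124ΔC/ΔC library, and every Gpr124ΔC/ΔC library above every Gpr124-/- library. Relative to WT, Angptl4 was 13.2-fold lower in Gpr124-/- (log2 fold change −3.73, SE 0.22, 95% interval −4.20 to −3.25, edgeR adjusted p = 2.89e-07). It was 3.14-fold lower in Gpr124ΔC/ΔC (log2 fold change −1.65, SE 0.20, interval −2.08 to −1.22, edgeR adjusted p = 0.00044), and the mutants differed from each other by −2.08 (SE 0.21, edgeR adjusted p = 0.000161). Angptl4 ranked 24th, 72nd and 21st by p among the 16637 genes in these comparisons. The decrease was present within each label letter that held 2 genotypes, with log2 ratios of mean TPM of −1.92 among J libraries and −1.32 among L libraries for Gpr124ΔC/ΔC over WT, and −3.54 between KE4 and KE8 for Gpr124-/- over WT.

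Angpt2, the endothelial ligand of TIE2, went the other way. The gene (chr8:18690263-18741562, minus strand) gave 32.9, 21.9, 30.3 and 32.0 TPM in the WT libraries, in the order above. It gave 37.8, 57.5, 58.6 and 43.2 TPM in Gpr124ΔC/ΔC and 65.0, 104.7, 67.2 and 157.6 TPM in Gpr124-/-. The 3 genotypes did not overlap, and within Gpr124-/- the libraries ME1 and ME5 stood well above KE4 and ME4. Angpt2 was 3.33-fold higher in Gpr124-/- than in WT (log2 fold change 1.74, SE 0.27, interval 1.16 to 2.32, edgeR adjusted p = 0.000508) and 2.09-fold higher than in Gpr124ΔC/ΔC (1.07, SE 0.26, edgeR adjusted p = 0.0241). Gpr124ΔC/ΔC against WT did not pass the test at 0.67 (SE 0.26, interval 0.10 to 1.24, edgeR adjusted p = 0.233), although no library overlapped. The adjusted p of this difference, but not its size, turned on the Gpr124-/- libraries, being 0.0233 with only WT and Gpr124ΔC/ΔC in the edgeR fit and 0.0163 without ME1 and ME5, and in neither did it reach 2-fold.

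The blood markers also varied inside the Gpr124-/- group. The erythroid markers summed to 24542, 52548, 17643 and 34145 TPM in KE4, ME1, ME4 and ME5, and the platelet markers to 629, 2028, 1411 and 1930 TPM. Both sums were highest in ME1 and ME5, the pair of libraries with the highest Angpt2. Within that pair ME1 had the higher sums and ME5 the higher Angpt2. The part of the blood markers in the result was not tested. Without ME1 and ME5, an alternative chosen after seeing these values, Angpt2 remained called against WT (log2 fold change 1.08, edgeR adjusted p = 0.00123) but not against Gpr124ΔC/ΔC (0.42, adjusted p = 0.255). Within letter K the log2 ratio of Angpt2 in KE4 over KE8 was 1.10, and these libraries held 24542 and 11032 TPM of erythroid markers and 629 and 321 TPM of platelet markers. With the label letter as a term in the fit, where Gpr124-/- against WT rests on KE4 and KE8 alone, the difference was 1.05 and no longer passed (edgeR adjusted p = 0.234). Leaving out JE3, LE5, ME1 or ME5 alone ended the call against Gpr124ΔC/ΔC, with log2 fold changes of 1.01, 0.99, 1.02 and 0.73 (edgeR adjusted p = 0.054, 0.0755, 0.0684 and 0.0528). The ratios of Gpr124ΔC/ΔC over WT within letters J and L were 0.80 and 0.67 on the log2 scale.

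The order of Angptl4 and Angpt2 was reversed in Gpr124-/-. Angptl4 stood at 7.58 ± 0.886 times the TPM of Angpt2 in WT, 1.55 ± 0.689 times in Gpr124ΔC/ΔC and 0.197 ± 0.0907 times in Gpr124-/-. The lowest WT ratio was 6.37 and the highest Gpr124ΔC/ΔC ratio 2.56, and the highest Gpr124-/- ratio was 0.314.

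**Figure D2:**
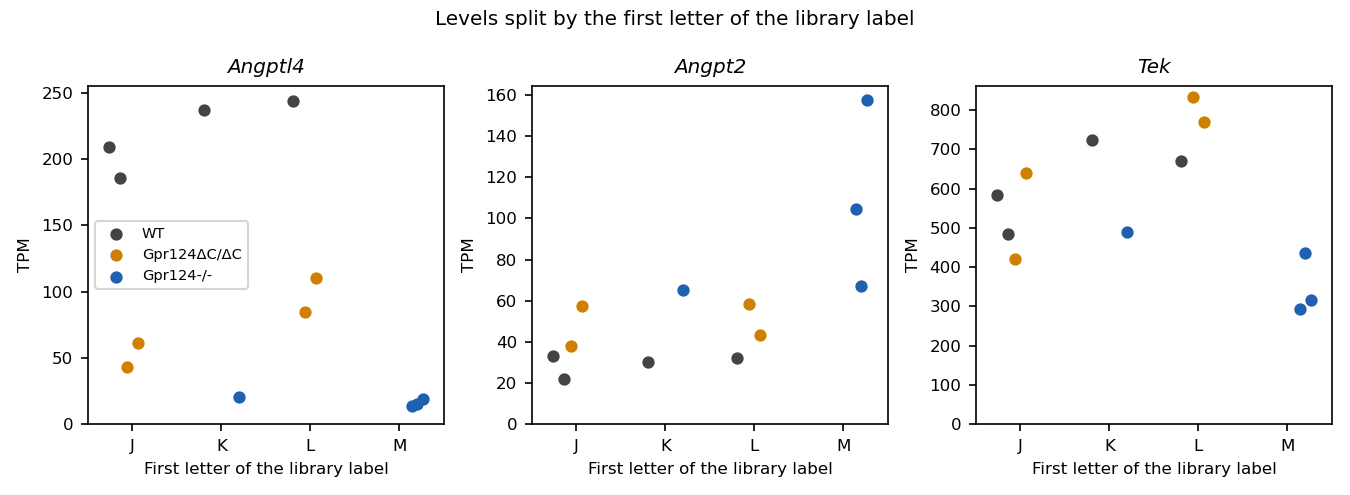
TPM (y axis, linear from 0) of Angptl4, Angpt2 and Tek, with libraries placed by the first letter of their label (x axis) and colored by genotype; each point is 1 embryo. Letter K holds 1 WT and 1 Gpr124-/- embryo, and in it Angptl4 is 237.0 against 20.4 TPM, Angpt2 30.3 against 65.0 TPM and Tek 725.1 against 489.9 TPM.

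Angpt2 lies on the chromosome of the targeted gene, 8.34 Mb from Adgra2, and inside the span of Mcph1, a gene of DNA repair and chromosome condensation on the opposite strand. The genes share no exon base. Mcph1 itself was between 5.54 and 10.56 TPM, with a log2 fold change of 0.17 (SE 0.14, edgeR adjusted p = 0.461) for Gpr124-/- against WT. Of 109 tested genes within 10 Mb of Adgra2, 7 were called between Gpr124-/- and WT, which is 6.42% against 9.88% of all tested genes, and none between Gpr124ΔC/ΔC and WT, against 1.92%. Between the mutants 3 of the 109 were called, or 2.75% against 4.6%.

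Angpt1, the activating ligand, was barely detected in these sorted cells. The gene (chr15:42424727-42676977, minus strand) gave 0.633, 0.0718, 0.531 and 1.5 TPM in WT, 0.382, 0.501, 1.10 and 1.66 TPM in Gpr124ΔC/ΔC, and 0.284, 0.0881, 0.227 and 0.231 TPM in Gpr124-/-. These values rest on 80, 78 and 22 reads summed over the 4 libraries of each genotype, with only 2 reads in JE6 and 2 in ME1. The Gpr124-/- libraries lay within the WT range and below every Gpr124ΔC/ΔC library. Angpt1 did not pass the test in any comparison. The log2 fold changes were −1.70 for Gpr124-/- against WT (SE 0.69, interval −3.20 to −0.20, edgeR adjusted p = 0.112), 0.33 for Gpr124ΔC/ΔC against WT (SE 0.61, adjusted p = 0.92) and −2.03 between the mutants (SE 0.69, adjusted p = 0.0943). Single WT libraries moved the first of these, to −2.06 (edgeR adjusted p = 0.0266) without JE6 and to −1.02 (adjusted p = 0.372) without LE6, and with the label letter it was −0.93 (adjusted p = 0.768). The L libraries LE6, LE2 and LE5 held the highest Angpt1 of all, and within letter L the genotypes differed by −0.12 on the log2 scale. In the gene model, 283 of the 4256 exon bases of Angpt1 (6.65%) are shared with the antisense gene Gm17473, which was listed at 0 TPM except in KE8.

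Angptl2, a secreted angiopoietin-like protein linked to inflammation, was low, with a higher mean in both mutants than in WT. The gene (chr2:33216069-33247717, plus strand) gave 2.23, 3.35, 4.67 and 2.54 TPM in WT, 5.04, 5.09, 7.61 and 6.65 TPM in Gpr124ΔC/ΔC, and 5.97, 3.94, 5.43 and 7.04 TPM in Gpr124-/-. All Gpr124ΔC/ΔC libraries were above all WT libraries, whereas ME1 of Gpr124-/- lay below WT library KE8. The log2 fold change against WT was 0.76 in Gpr124-/- (SE 0.24, edgeR adjusted p = 0.0403), short of 2-fold, and 0.84 in Gpr124ΔC/ΔC (SE 0.24, adjusted p = 0.0777). The mutants differed by −0.08 (SE 0.24, adjusted p = 0.877). These values depended on few libraries: Gpr124-/- against WT kept an adjusted p under 0.05 in 9 of 22 alternative fits, and without WT library KE8 Angptl2 was called higher in Gpr124ΔC/ΔC at 1.05 (adjusted p = 0.0315), as it was once the label letter entered the fit (1.03, adjusted p = 0.02). The same fit gave 0.31 for Gpr124-/- against WT (edgeR adjusted p = 0.826) and −0.72 between the mutants, and within letter K the log2 ratio of Gpr124-/- over WT was 0.35. Angptl2 lies within Ralgps1 on the opposite strand with no shared exon base.

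Of the receptors, Tek passed on adjusted p alone in Gpr124-/- embryos, short of a call, and Tie1 did not. Tek (chr4:94739289-94874976, plus strand) gave 584.2, 485.4, 725.1 and 669.4 TPM in WT, 420.1, 639.5, 834.4 and 770.4 TPM in Gpr124ΔC/ΔC, and 489.9, 294.1, 436.0 and 315.9 TPM in Gpr124-/-. In TPM only KE4 reached the lowest WT library JE6, and ME1 and ME5, the libraries with the highest Angpt2, were the lowest for Tek. Tek was at 0.605 times its WT level in Gpr124-/- (log2 fold change −0.73, SE 0.17, edgeR adjusted p = 0.00795) and differed from Gpr124ΔC/ΔC by −0.74 (SE 0.17, adjusted p = 0.0157), both short of a 2-fold change. Without ME1 and ME5 the first of these was −0.51 with an adjusted p of 0.114, and within letter K the ratio was −0.57 on the log2 scale. Gpr124ΔC/ΔC and WT differed by 0.02 (SE 0.17, edgeR adjusted p = 0.989).

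Tie1 (chr4:118471191-118490061, minus strand) gave 800.9, 754.5, 814.5 and 856.0 TPM in WT, 583.0, 847.4, 986.3 and 1064.7 TPM in Gpr124ΔC/ΔC, and 747.8, 656.5, 819.8 and 946.7 TPM in Gpr124-/-, and the 3 ranges overlapped. The difference from WT was −0.06 in Gpr124-/- (interval −0.35 to 0.22, edgeR adjusted p = 0.792) and 0.01 in Gpr124ΔC/ΔC (interval −0.27 to 0.30, adjusted p = 0.99), and the mutants differed by −0.08 (SE 0.13, adjusted p = 0.768). The ratio of Tie1 to Tek TPM was 1.37, 1.55, 1.12 and 1.28 in WT and 1.39, 1.33, 1.18 and 1.38 in Gpr124ΔC/ΔC. In Gpr124-/- it was 1.53, 2.23, 1.88 and 3, so 3 of the 4 libraries exceeded every WT library.

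The bases before the start of Tek are shown because Tek is the receptor with the larger difference in Gpr124-/-, although it was not called. They are the 250 bases upstream of the RefSeq start (GRCm38.p6, chr4:94739039-94739288, plus strand), with the core of ETS factor sites, which are common in endothelial promoters, in capitals as GGAA or, on the other strand, TTCC.
Tek: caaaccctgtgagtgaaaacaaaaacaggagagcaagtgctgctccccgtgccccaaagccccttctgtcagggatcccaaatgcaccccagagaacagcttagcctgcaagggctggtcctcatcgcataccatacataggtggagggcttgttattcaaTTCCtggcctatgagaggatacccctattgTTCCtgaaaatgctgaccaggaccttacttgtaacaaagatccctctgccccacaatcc
This stretch holds 2 such cores and the corresponding window of Tie1 holds 7. Of the 32851 RefSeq windows of this length 93.4% hold at least 1, with a median of 3. The ETS core was chosen after the data were seen. For TCF/LEF sites CTTTGAT and CTTTGAA were searched, for FOXO sites GTAAACA and GTAAATA, and for the hypoxia core ACGTG, on both strands. None was present in the 300-base windows of Tek, Tie1 and Angptl2, the 3 members listed in the RefSeq promoter table. Other spellings of these sites were not searched. The Tek stretch above, for example, holds aacaaag, which reads CTTTGTT on the other strand. For Tie1, 212 of the 250 bases before the RefSeq start lie inside the gene as the count files define it, so that window is largely transcribed sequence in that gene model. The searched TCF/LEF, FOXO and hypoxia letters occur in 8.65%, 6.54% and 19.6% of all 300-base windows. A match or its absence describes the letters of the window only.

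Ptprb, the phosphatase that opposes TIE2 activity, did not pass in any comparison. The gene (chr10:116301374-116389538, plus strand) gave 139.8, 124.2, 150.5 and 163.9 TPM in WT, 98.1, 129.7, 147.0 and 165.6 TPM in Gpr124ΔC/ΔC, and 134.1, 109.4, 143.7 and 145.1 TPM in Gpr124-/-. All 3 genotypes overlapped. The log2 fold change against WT was −0.16 in Gpr124-/- (interval −0.40 to 0.08, edgeR adjusted p = 0.386) and −0.19 in Gpr124ΔC/ΔC (interval −0.43 to 0.06, adjusted p = 0.535), and these intervals leave out any 2-fold change. The mutants differed by 0.03 (SE 0.11, edgeR adjusted p = 0.907). With Tek lower, the ratio of Ptprb to Tek TPM was 0.359 ± 0.0783 in Gpr124-/-, against 0.237 ± 0.0208 in WT and 0.207 ± 0.024 in Gpr124ΔC/ΔC.

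**Figure D3:**
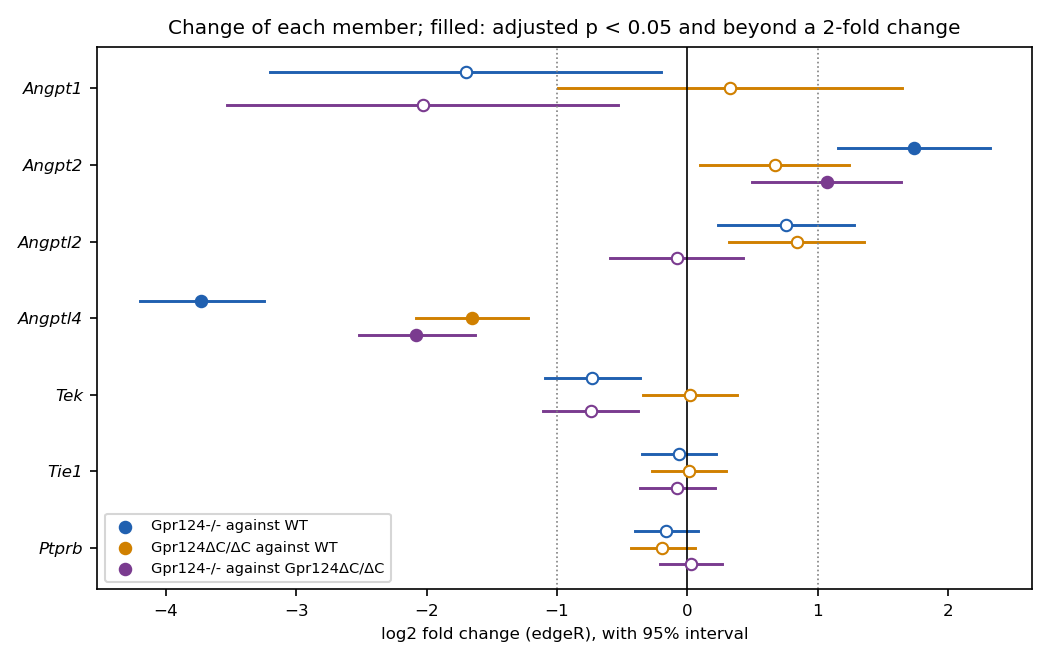
Log2 fold change (x axis) of each member in 3 comparisons with its 95% interval from edgeR; filled points passed both thresholds and dotted lines mark a 2-fold change. Angptl4 is filled in all 3 comparisons and Angpt2 in the 2 that involve Gpr124-/-, while the Tie1 and Ptprb intervals span 0.

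Other genes of the pathway were counted from lists chosen with earlier results of these data known. Little of the remaining angiopoietin family was expressed. Angpt4 and Angptl7 did not pass the filter on low counts, and none of the 3 tested genes Angptl1, Angptl6 and Angptl8, at 1.39, 4.14 and 9.83 TPM in WT, was called in any comparison. Of all tested genes 9.88% were called in Gpr124-/- against WT, 1.92% in Gpr124ΔC/ΔC against WT and 4.6% between the mutants. A count of 0 of 3 is close to this background. Among 9 tested partners and ligand-side factors of the Tie receptors, 2 were called higher in Gpr124-/- than in WT and none lower, beside 5.67% and 4.21% of all tested genes, and the median log2 fold change of the list was 0.61 against −0.01 for all tested genes. The called genes were Mmp14, a membrane metalloprotease (162 against 353 TPM in WT and Gpr124-/-, log2 fold change 1.09, SE 0.13, edgeR adjusted p = 7.67e-05), and Itgb3, the β3 integrin of endothelium and platelets (26.3 against 115 TPM, 2.12, SE 0.43, adjusted p = 0.00356). The platelet markers, whose sums are given above, were all called higher in Gpr124-/- as well, and their part in the Itgb3 value was not tested. None of the 9 was called in Gpr124ΔC/ΔC, where 1.92% of all tested genes were, so a count of 0 is close to the background.

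Of 27 tested genes of TIE2 signaling, from adaptors to PI3K, AKT and FOXO factors, 1 was called higher and 2 lower in Gpr124-/- against WT and none in Gpr124ΔC/ΔC, where 9.88% and 1.92% of all tested genes were called in either direction. The count is close to that background, and the median of the list was 0.07 against −0.01. The 2 lower genes were adaptors of the GRB7 family that bind receptor tyrosine kinases, with Grb7 at 11.7 TPM in WT, 4.55 in Gpr124ΔC/ΔC and 0.441 in Gpr124-/- (log2 fold change of Gpr124-/- against WT −4.75, SE 0.53, edgeR adjusted p = 3.83e-05), and Grb14 at 22.3, 25.6 and 4.81 TPM (−2.28, SE 0.37, adjusted p = 0.000683). Dok2, a docking protein recruited to TIE2, was the higher gene, at 2.92 TPM in WT and 7.26 in Gpr124-/- (1.29, SE 0.36, adjusted p = 0.0231). All 10 platelet markers were called higher in Gpr124-/- too, and their part in the Dok2 value was not tested. Foxo1 differed by −0.01 (SE 0.40, adjusted p = 0.992) and Akt1 by 0.35 (SE 0.28, adjusted p = 0.448).

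Of 18 FOXO target genes, 2 were called higher and 1 lower in Gpr124-/- against WT, where 5.67% and 4.21% of all tested genes were, with a list median of −0.07 against −0.01. Irs2, an insulin signaling adaptor, was higher (1.69 against 7.64 TPM, 2.14, SE 0.46, edgeR adjusted p = 0.00501), as was Bbc3, a proapoptotic gene (1.05, SE 0.31, adjusted p = 0.0323). Pdk4, which restrains pyruvate oxidation, was lower in both mutants, at 18.9 TPM in WT, 7.16 in Gpr124ΔC/ΔC and 2.14 in Gpr124-/- (log2 fold changes −1.48 and −3.18, edgeR adjusted p = 0.00741 and 8.85e-06). It was the single called gene of this list in Gpr124ΔC/ΔC, beside 1.03% of all tested genes called lower and 0.89% higher.

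Genes of the Weibel-Palade body, the storage granule of ANGPT2 and von Willebrand factor, were called mainly in the higher direction. Of 14 tested, 6 were called higher and 1 lower against WT, where 5.67% and 4.21% of all tested genes were, and the list median was 0.75 against −0.01. Sncg, γ-synuclein, stood at 67.1, 149 and 357 TPM in WT, Gpr124ΔC/ΔC and Gpr124-/- and was called higher in both mutants (1.07 and 2.38, edgeR adjusted p = 0.00446 and 2.39e-06), and no other gene of the list was called in Gpr124ΔC/ΔC, where 0.89% of all tested genes were called higher and 1.03% lower. Cd63, a granule membrane tetraspanin, rose from 46.3 to 138 TPM in Gpr124-/- (1.55, SE 0.22, edgeR adjusted p = 0.000304). Rab3a, Rab3b, Myo5a and Unc13d, which act in granule transport and release, were the other higher genes, with log2 fold changes of 1.25 to 2.05, and Rab27a was lower at −1.02 (SE 0.32, adjusted p = 0.0415). Vwf itself was at 94 TPM in WT and 172 TPM in Gpr124-/-, short of 2-fold (0.84, SE 0.20, adjusted p = 0.0106). Platelets carry several of these transcripts, and all 10 platelet markers were called higher in Gpr124-/- and none in Gpr124ΔC/ΔC. Their part in these counts was not tested.

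The genes around ANGPTL4 and lipoprotein lipase split in both directions, with 5 of 14 tested genes called higher and 5 lower in Gpr124-/- against WT, beside 5.67% and 4.21% of all tested genes, and a median of −0.05. Of the higher genes Fabp4 and Pparg were near 0 in WT and Gpr124ΔC/ΔC and passed the filter on low counts only through Gpr124-/-, so their calls were fixed in part by that filter and the count is a description. Ppard, a fatty acid-sensing nuclear receptor of which Angptl4 is a known target, followed the order of Angptl4 at 17.1, 7.23 and 3.95 TPM in WT, Gpr124ΔC/ΔC and Gpr124-/- (log2 fold changes against WT −1.32 and −2.16, edgeR adjusted p = 0.000165 and 6.31e-07). Lipe, Cpt1a and Lpl, which serve lipid breakdown and fatty acid oxidation, were called lower in Gpr124-/- at −1.75, −1.05 and −1.16. Gpihbp1, which holds lipoprotein lipase on the capillary surface, was higher at 22.8 TPM in WT and 276 TPM in Gpr124-/- (3.57, SE 0.21, edgeR adjusted p = 2.75e-07), and its value in Gpr124ΔC/ΔC was 46.6 TPM (0.96, SE 0.19, adjusted p = 0.0115), short of 2-fold. Cd36 and Fabp4, which serve fatty acid uptake and transport, and Pparg, a nuclear receptor of lipid storage, were near 0 in WT, at 0.882, 0.041 and 0.0843 TPM, and reached 6.89, 4.05 and 3.52 TPM in Gpr124-/-.

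Between the mutants, with Gpr124-/- set against Gpr124ΔC/ΔC, 1 partner of the Tie receptors was called higher (Itgb3) and 2 signaling genes lower (Grb7 and Grb14), where 2.67% of all tested genes were called higher and 1.94% lower. Of the FOXO targets 3 were called higher (Bbc3, Bcl6 and Irs2) and 1 lower (Pdk4). Of the Weibel-Palade genes 5 were called higher (Rab3b, Cd63, Sncg, Myo5a and Unc13d) and none lower, with a median of 0.64 against −0.02 for all tested genes. Of the lipoprotein lipase list 4 were called higher (Fabp4, Cd36, Pparg and Gpihbp1) and 1 lower, and Fabp4 and Pparg again entered only through Gpr124-/-.

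**Figure D4:**
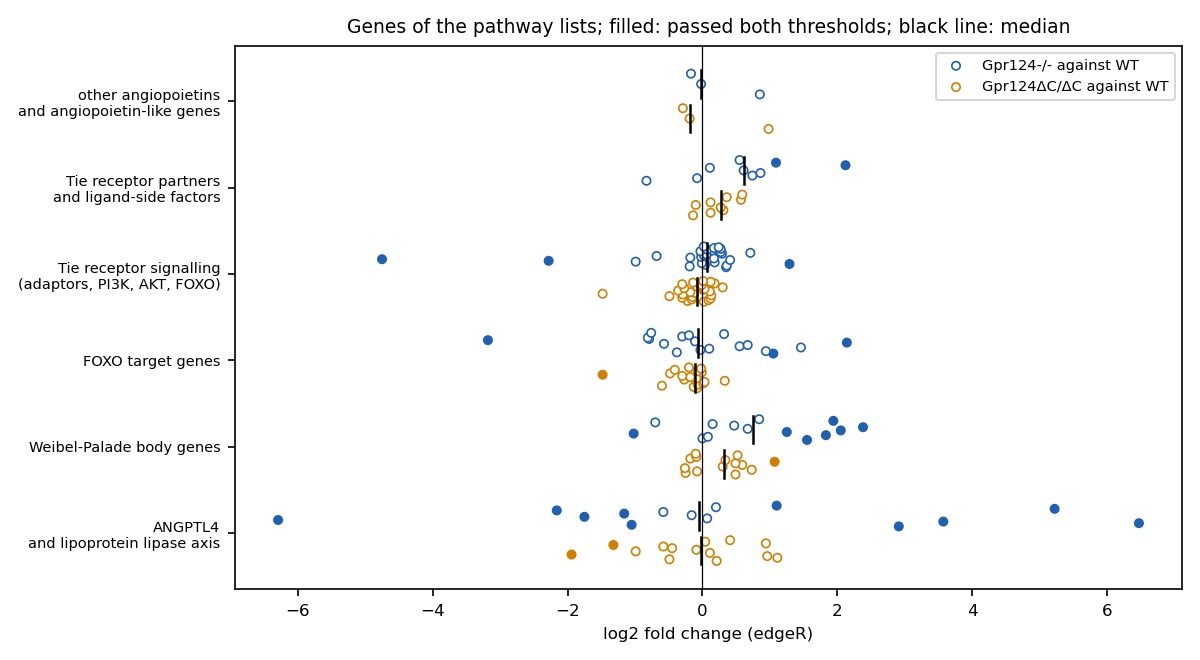
Log2 fold change (x axis, edgeR) of each tested gene of 6 pathway lists in Gpr124-/- against WT and Gpr124ΔC/ΔC against WT; filled points passed both thresholds and black lines are list medians. The Weibel-Palade list has a median of 0.75 in Gpr124-/-, and the lipoprotein lipase list holds called genes on both sides of 0.

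Across the 12 libraries, the genes whose log2 CPM, a level corrected for depth only, were most like each member, by Pearson correlation over the 10907 genes averaging 5 CPM or more, differed from member to member. The 12 libraries mix variation between and within genotypes, so the values describe likeness of pattern only. For Angptl4 they were Ptges (r = 0.997), Cldn5 (0.997), the tight junction gene, and Stra6 (0.995). For Angpt2 they were Prdx2 (0.98), an antioxidant enzyme abundant in red cells, Prdx4 (0.969) and Map3k14 (0.966). Those of Tek were 4931406P16Rik (0.973), Sesn1 (0.969) and Efr3b (0.964), and those of Tie1 were Fbxo21 (0.932), Zgpat (0.931) and Ipo4 (0.929). Ptprb was nearest to Ube3b (0.935), Angptl2 to Stox1 (0.901) and Angpt1 to Pygl (0.929).

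**Figure D5:**
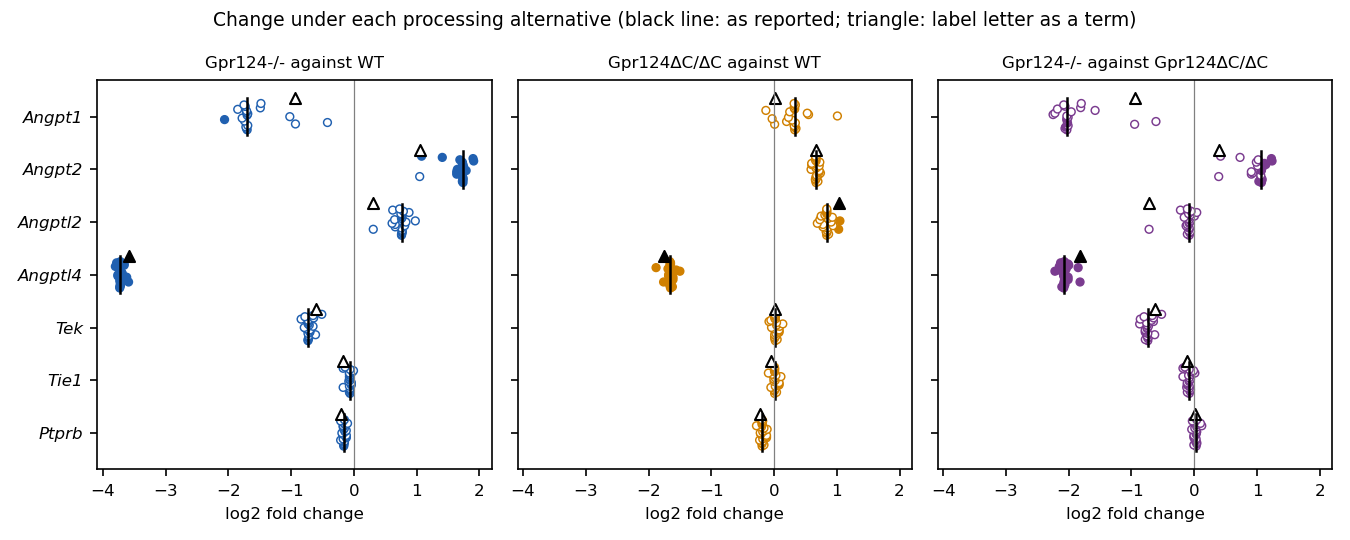
Log2 fold change (x axis) of each member under every processing alternative, 1 panel per comparison; filled points passed both thresholds, black lines give the reported value and triangles the fit with the label letter as a term. Angptl4 stays filled in all panels, whereas Angpt2 is open with the label letter as a term in both comparisons that involve Gpr124-/-.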

How the data were processed

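The authors deposited read counts per gene for each of 12 libraries and a table of TPM values. Libraries were made from poly(A) RNA with SMART-Seq V4 and sequenced as 150 bp paired ends on an Illumina HiSeq. The labels name mm10 and bcl2fastq 2.17. The aligner, the counter and the strand setting were not given in the sources used here, so reads of antisense partners could not be told apart. The deposited TPM followed from the counts and exon lengths, and gene symbols came from GENCODE vM21.

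Counts were filtered with filterByExpr (minimum count 10) and fitted with edgeR 4.0.16 in R 4.3.3 (TMM factors, quasi-likelihood test, 1 model over all 12 libraries, 3 contrasts). The thresholds were those of the study. Intervals are at 95%. DESeq2 1.42.0, upper-quartile factors, other filters, limma 3.58.1 on log2(TPM + 1 or 0.1), the compared genotypes alone, the label letter as a term, and each library left out were alternatives. Scripts were tested on simulated counts. Embryos were the replicates. The members and lists were chosen with earlier results of these data known. All values of the 7 members are given; list genes were named where called, and uncalled ones (Foxo1, Akt1, Vwf and the other angiopoietin-like genes) were chosen after their values were seen; likeness was ranked as 3 genes per member. Items of the pathway lists that are counted but not named are not reported here.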

Additional observations from a re-analysis of the deposited data

How the results depend on the processing

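Angptl4 kept its direction and its call in all 3 comparisons in all 22 other ways of processing the counts, the fit without ME1 and ME5 included. Angpt2 in Gpr124-/- against WT kept its call in 21 of the 22, the exception being the label letter as a term. Against Gpr124ΔC/ΔC its call was lost in 10 of 22, namely with the label letter (0.39, edgeR adjusted p = 0.952), with the compared genotypes only (1.06, adjusted p = 0.0552), with limma on TPM in its 3 settings, and without JE3, LE5, ME1, ME5, or ME1 and ME5 together. Angpt1 was called between the mutants with DESeq2 (−2.05, adjusted p = 0.0352), with the compared genotypes only (−2.02, adjusted p = 0.0421) and without WT library JE6 (−2.03, adjusted p = 0.0417), and stricter filters removed it. Tek in Gpr124-/- no longer passed on adjusted p with the label letter, at −0.61 against WT and −0.63 against Gpr124ΔC/ΔC. The reported fit gave −0.73 and −0.74. Over the 3 limma settings the Tek differences were −0.70 and −0.78, with limma adjusted p of 0.0559 to 0.109 and 0.0628 to 0.122. Without ME1 alone the edgeR adjusted p of Tek was 0.0535 against Gpr124ΔC/ΔC. Angpt1 rests on 22 to 80 reads per genotype. It passed the filter only through WT and Gpr124ΔC/ΔC, so its calls were fixed in part by that filter and are a description. The cause of these losses was not tested. The labels do not pair embryos across genotypes, and the label letter was the one block that could be fitted.

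The fit with the label letter called 1, 2 and 1 members in Gpr124-/- against WT, Gpr124ΔC/ΔC against WT and Gpr124-/- against Gpr124ΔC/ΔC, and 846 of all genes (1644 in the reported fit) and 209 (766 in the reported fit) in the first and last. On adjusted p alone, 4 members passed in the first comparison, and 3295, 680 and 1468 of all genes. Between the mutants 1 member was called with each limma setting and without ME1 and ME5, and 482 genes with limma on log2(TPM + 1), 386 without its filter and 201 without ME1 and ME5. Without ME1 and ME5 1067 genes were called against WT. In Gpr124ΔC/ΔC against WT limma without a filter called 193 genes (320 in the reported fit). Leaving out each library gave 1 to 2 members in Gpr124ΔC/ΔC against WT (2 without KE8), and 1 to 3 members (3 without JE6) and 506 genes (without ME5) to 1008 genes (without KE4) between the mutants. The share called near Adgra2 was 10.3% in Gpr124-/- against WT within 20 Mb and 1.52% between the mutants within 5 Mb.

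The sign changed for differences near 0 that passed no test. Leaving out each library gave −0.13 to 1.01 for Angpt1, −0.08 to 0.14 for Tek and −0.09 to 0.11 for Tie1 in Gpr124ΔC/ΔC against WT, and −0.22 to 0.04 for Angptl2, −0.18 to 0.01 for Tie1 and −0.04 to 0.12 for Ptprb between the mutants. Tie1 in Gpr124ΔC/ΔC against WT was −0.05 with the label letter, and Ptprb between the mutants was −0.0063 with upper-quartile factors, −0.0046 with limma on log2(TPM + 1) with or without a filter and −0.0045 on log2(TPM + 0.1).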
